A study of Homo sapiens with 8 samples.

Results

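The 33 genes described here are established targets of the hypoxia-inducible factors (HIFs) and include glycolytic enzymes and regulators of cell pH. They were taken by gene symbol from the 61228 gene names in each count table. All 33 were listed, and all 33 were among the 21307 genes tested. RNA came from H1975 and HCC44, established human lung cancer cell lines whose genotype the labels give as WT. Dishes of each line were kept for 96 hours in DMSO, the solvent, or in ACBI1, giving 4 groups of 2 libraries. The labels give the ACBI1 concentration as 1 mM, a unit that is uncertain because degraders are usually used far below it. ACBI1 is a degrader: it binds bromodomains found in the SWI/SNF subunits SMARCA2, SMARCA4 and PBRM1 and brings these chromatin remodelling proteins to the VHL ubiquitin ligase. The medium was serum-supplemented RPMI, and the oxygen level is not given in the sources used here.

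In cells with enough oxygen, prolyl hydroxylases of the EGLN family modify HIF alpha subunits, and VHL, the substrate receptor of a cullin ligase, binds the modified subunits and has them degraded. When oxygen is scarce, HIF alpha subunits persist, pair with ARNT and bind short DNA motifs with the core ACGTG or GCGTG. Their targets raise glucose uptake and glycolysis, export acid, induce vessel growth and reshape mitochondria and matrix. Because ACBI1 works through the same ligase receptor, the comparison of ACBI1 with DMSO in each line asks how this set of transcripts stood under the degrader.

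In both lines more of these genes fell than rose with ACBI1. In H1975, 16 fell and 5 rose, and in HCC44, 16 fell and 4 rose, at an adjusted p under 0.05. Of all genes tested, 31.3% were called in H1975, 16.7% lower and 14.6% higher, and 34.9% in HCC44, 17.4% lower and 17.5% higher. Genes that fell in both lines numbered 11, namely VEGFA, STC2, SLC2A1, ALDOA, PGK1, ENO1, CA9, KDM4B, P4HA2, LOX and NDRG1. Of these, CA9 had only 5 to 143 counts a library, and the ALDOA counts are uncertain for a reason given below. ALDOA and CA9 lost the call in both lines with single libraries left out, as did SLC2A1, P4HA2 and LOX in H1975. EGLN1 and ANGPTL4 rose in both, HK2 and PFKFB3 rose in H1975 and fell in HCC44, and 7 genes were called in neither line. Of all genes tested, 7.08% fell in both lines, 5.83% rose in both, 0.896% rose in H1975 and fell in HCC44, and 49% were called in neither. The median log2 fold change over the 33 genes was -0.38 in H1975 and -0.22 in HCC44, against -0.01 and 0.01 over all genes tested.

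Values are in CPM, read counts divided by library size, with TMM factors that equalise the bulk of genes between libraries. Fold changes are on the log2 scale with their standard errors (SE), and adjusted p-values are those of edgeR (quasi-likelihood F test, Benjamini-Hochberg over all genes tested). Each group had n = 2. The labels do not say whether replicates came from separate cultures, so p-values measure the spread between these libraries, which may be technical. In bulk RNA, fewer cells with a transcript and less of it per cell cannot be told apart. Levels of different genes are not compared, since CPM does not account for length.

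Counts assigned to genes ranged from 62467286 to 70455517 per library. Replicates correlated at 0.9923 to 0.9937 in log2 CPM and libraries of different groups in one line at 0.9683 to 0.9756. All 6 epithelial markers examined were detected in every library, from 4.10 CPM for CDH1 in HCC44 up to 3124 CPM for KRT7 in H1975. Their summed level was 5137 and 5393 CPM in H1975 with DMSO and 2331 and 2808 CPM with ACBI1. HCC44 sums were 939.8 and 979.9 CPM with DMSO and 1199 and 1658 CPM with ACBI1. In H1975, KRT7, KRT8, KRT18 and KRT19 fell, and EPCAM and CDH1 were not called. In HCC44, KRT7 and EPCAM rose, KRT8 fell and the rest were not called. The part of these shifts in the results below was not tested. The 4 leukocyte markers summed to at most 0.858 CPM, with CD3E at 0, and the 3 endothelial markers summed to 0.439 to 4.01 CPM. Of the 3 fibroblast markers, DCN was at 0 and PDGFRB at most 2.96 CPM, while COL1A1 reached 404 CPM in HCC44 with ACBI1.

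**Figure D1:**
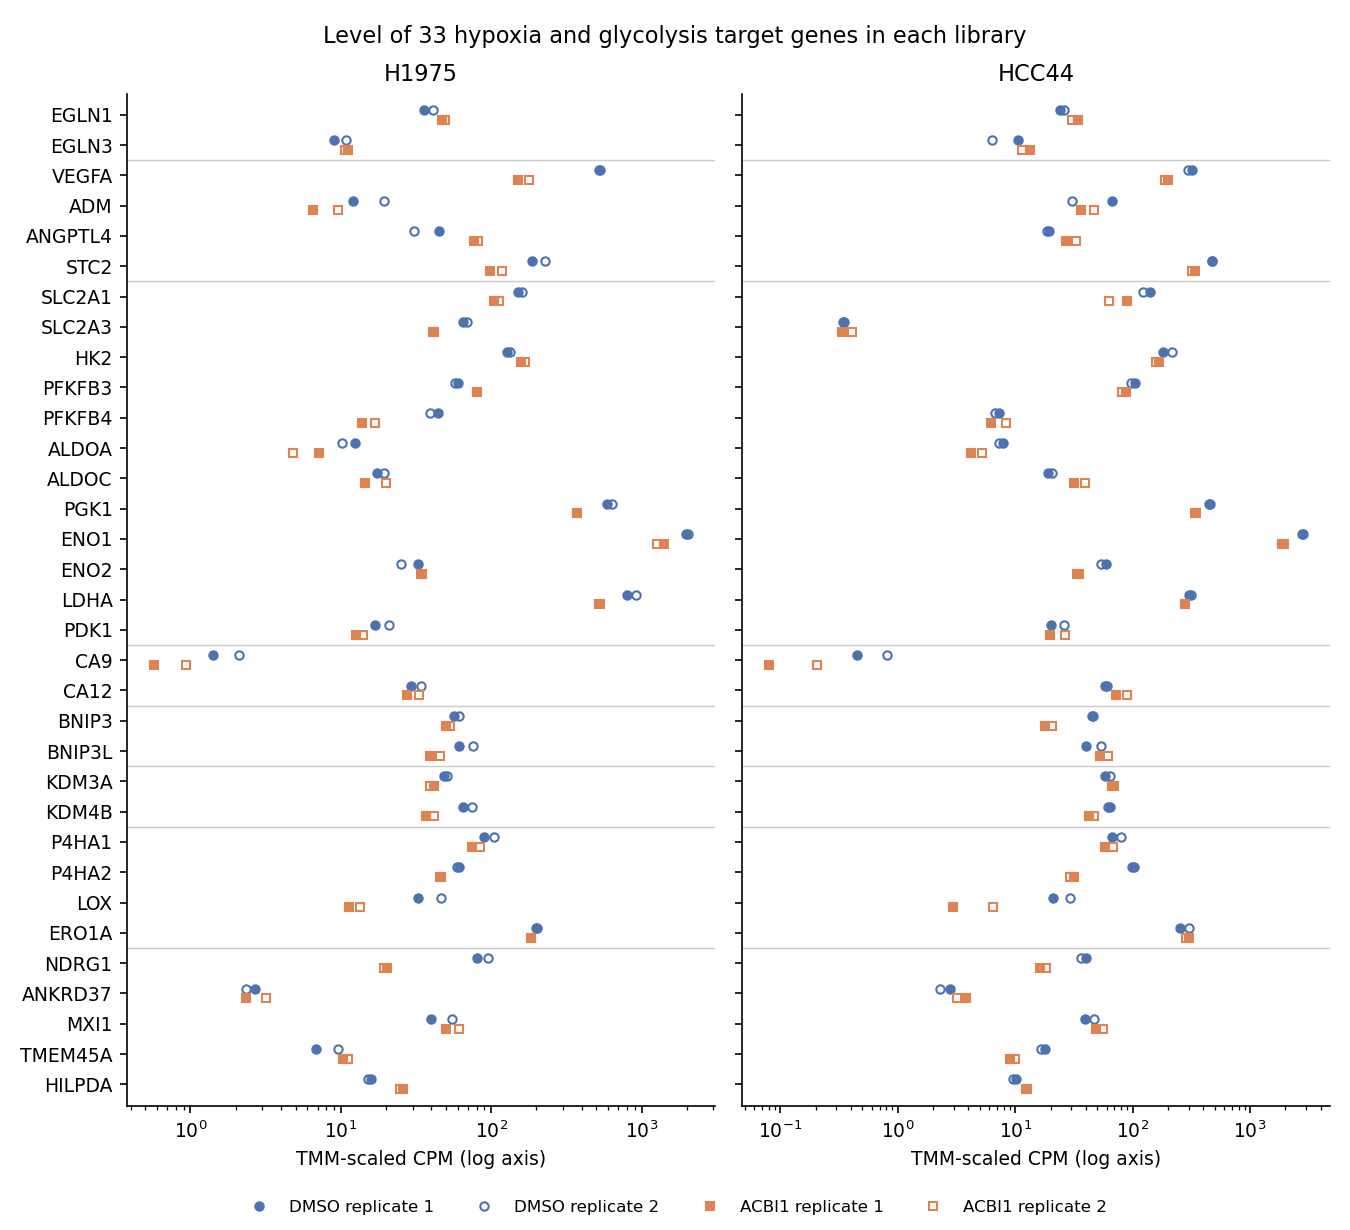
Level of each of the 33 genes in each of the 8 libraries, as TMM-scaled CPM on a log axis, with 1 panel per line. Circles are DMSO, squares are ACBI1, filled symbols are replicate 1 and open symbols replicate 2, and grey lines separate the roles in which the genes are described. Wide gaps between circles and squares include those of NDRG1, VEGFA, LOX and PFKFB4 in H1975 and of P4HA2, BNIP3, LOX and CA9 in HCC44.

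The promoter sequences below are shown for some of the genes, chosen as examples and not by size of change. They include 3 glycolytic genes that fell in H1975 (PGK1, ENO1 and LDHA) and the oxygen sensor that rose in both lines (EGLN1). The others are the collagen-modifying gene with a deep fall in HCC44 (P4HA2) and the PFKFB pair that moved in opposite directions in H1975. Each sequence covers 250 bases before and 50 bases after the RefSeq gene start on GRCh38.p14, written 5′ to 3′ on the gene's own strand. Capitals mark the HIF core motifs ACGTG and GCGTG on either strand, so that CACGT and CACGC are capitalised too.
PGK1, chrX:78103998-78104297, plus strand: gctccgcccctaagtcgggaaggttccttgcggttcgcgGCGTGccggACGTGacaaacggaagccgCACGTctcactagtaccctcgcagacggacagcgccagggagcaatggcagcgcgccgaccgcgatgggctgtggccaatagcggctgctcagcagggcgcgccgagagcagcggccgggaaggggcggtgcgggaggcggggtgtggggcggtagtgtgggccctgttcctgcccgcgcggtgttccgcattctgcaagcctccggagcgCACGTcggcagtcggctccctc
LDHA, chr11:18394313-18394612, plus strand: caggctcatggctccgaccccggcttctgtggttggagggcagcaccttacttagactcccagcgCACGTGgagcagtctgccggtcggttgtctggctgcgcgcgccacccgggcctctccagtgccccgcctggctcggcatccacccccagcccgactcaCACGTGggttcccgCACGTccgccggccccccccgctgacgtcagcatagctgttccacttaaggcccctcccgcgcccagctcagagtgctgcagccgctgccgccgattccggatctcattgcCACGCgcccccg
ENO1, chr1:8878637-8878936, minus strand: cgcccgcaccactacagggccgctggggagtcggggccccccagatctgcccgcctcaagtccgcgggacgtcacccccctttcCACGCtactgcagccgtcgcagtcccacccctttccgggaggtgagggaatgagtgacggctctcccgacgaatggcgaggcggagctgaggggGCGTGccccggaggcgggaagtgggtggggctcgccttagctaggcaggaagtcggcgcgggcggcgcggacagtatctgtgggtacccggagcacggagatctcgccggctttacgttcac
EGLN1, chr1:231422238-231422537, minus strand: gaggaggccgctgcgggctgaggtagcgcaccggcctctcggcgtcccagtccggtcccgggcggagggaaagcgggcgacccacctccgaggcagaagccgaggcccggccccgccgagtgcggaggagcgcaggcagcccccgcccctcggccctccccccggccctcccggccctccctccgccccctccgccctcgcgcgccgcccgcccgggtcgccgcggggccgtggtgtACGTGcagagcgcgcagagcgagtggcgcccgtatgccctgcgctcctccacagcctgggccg
P4HA2, chr5:132227042-132227341, minus strand: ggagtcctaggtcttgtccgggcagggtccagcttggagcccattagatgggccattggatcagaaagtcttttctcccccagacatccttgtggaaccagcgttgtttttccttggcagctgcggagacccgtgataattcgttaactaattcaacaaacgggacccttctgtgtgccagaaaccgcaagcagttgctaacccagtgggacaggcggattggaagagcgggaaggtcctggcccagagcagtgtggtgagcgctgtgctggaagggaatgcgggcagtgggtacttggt
PFKFB3, chr10:6144671-6144970, plus strand: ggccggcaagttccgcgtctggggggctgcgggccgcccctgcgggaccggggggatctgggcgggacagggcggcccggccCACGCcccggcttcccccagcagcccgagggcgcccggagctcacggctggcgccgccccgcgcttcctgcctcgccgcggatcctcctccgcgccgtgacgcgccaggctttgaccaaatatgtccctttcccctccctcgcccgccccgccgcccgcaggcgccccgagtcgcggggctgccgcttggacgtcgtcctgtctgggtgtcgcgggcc
PFKFB4, chr3:48556754-48557053, minus strand: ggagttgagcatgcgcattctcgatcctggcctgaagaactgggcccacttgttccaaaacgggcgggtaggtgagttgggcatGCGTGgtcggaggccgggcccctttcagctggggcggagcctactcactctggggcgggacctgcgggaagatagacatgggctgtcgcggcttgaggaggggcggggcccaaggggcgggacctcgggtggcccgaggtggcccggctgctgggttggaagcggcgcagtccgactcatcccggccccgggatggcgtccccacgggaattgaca

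Of the 33 genes, 28 had a promoter in the RefSeq table, and 23 of these held at least 1 core motif. That is 82.1%, against 60.7% of the 13176 promoters of tested genes and 48.4% of all 35116 promoters of this length. ACGTG itself was in 53.6% of the members' promoters and in 25.7% of those of tested genes. The palindrome CACGTG holds ACGTG on both strands and is counted 2 times, as in LDHA, whose window had 6 matches, more than the 4 of PGK1, the 2 of ENO1 and the 1 each of EGLN1, PFKFB3 and PFKFB4. The P4HA2 window held none. Among the genes that fell in both lines, 8 of 9 windows held a motif, and among those that rose in at least 1 line 6 of 6 did. Among the 7 genes called in neither line, 4 windows held one. A match describes the letters in the window and not binding of a factor.

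The oxygen sensors are the prolyl hydroxylases EGLN1 and EGLN3, themselves HIF targets that feed back on the pathway. EGLN1 was at 35.7 and 41.1 CPM with DMSO and 47.2 and 49.5 CPM with ACBI1 in H1975, and at 24.0 and 25.8 CPM with DMSO and 34.6 and 30.7 CPM with ACBI1 in HCC44. Both ACBI1 libraries lay above both DMSO libraries in each line. The rise was 0.33 ± 0.11 in H1975 (adjusted p 0.043) and 0.39 ± 0.11 in HCC44 (adjusted p 0.0199), and the difference between the lines was 0.06 ± 0.16 (adjusted p 0.854). Both calls were lost when single libraries were left out. In H1975 that was so without DMSO replicate 1 (0.23), either ACBI1 replicate (0.32 and 0.40) or either HCC44 DMSO replicate (0.33 each), and in HCC44 without either DMSO replicate (0.33 and 0.45) or ACBI1 replicate 1 (0.31). EGLN3 was at 8.96 and 10.8 CPM with DMSO and 11.1 and 10.6 CPM with ACBI1 in H1975, where the groups overlapped. In HCC44 it was at 10.5 and 6.30 CPM with DMSO and 13.3 and 11.4 CPM with ACBI1, without overlap, at 0.56 ± 0.22 (adjusted p 0.0709), which did not pass the threshold.

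Among the genes for secreted signals, the angiogenic growth factor VEGFA fell most. In H1975 it was at 521 and 531 CPM with DMSO and 150.3 and 179 CPM with ACBI1, with all ACBI1 values far below DMSO. The change was -1.68 ± 0.10 (adjusted p 4.48e-06), a level 3.2-fold lower. HCC44 libraries were at 318 and 294 CPM with DMSO and 200.0 and 187 CPM with ACBI1, again without overlap, a log2 fold change of -0.66 ± 0.10 (adjusted p 0.000503). The fall was deeper in H1975, with a difference of 1.02 ± 0.14 (adjusted p 0.00105). STC2, a stanniocalcin glycoprotein hormone, moved the same way. It was at 186 and 226 CPM with DMSO and 98.0 and 118 CPM with ACBI1 in H1975, a change of -0.93 ± 0.12 (adjusted p 0.000265). The HCC44 levels were 476 and 476 CPM with DMSO and 343 and 320.4 CPM with ACBI1, a change of -0.52 ± 0.12 (adjusted p 0.00529), and neither line's groups overlapped. The difference between the lines in STC2 was not called (adjusted p 0.111).

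ANGPTL4, a secreted inhibitor of lipoprotein lipase, went the opposite way to VEGFA. In H1975 it was at 45.1 and 30.7 CPM with DMSO and 77.4 and 81.5 CPM with ACBI1, so both ACBI1 libraries were higher. The rise was 1.07 ± 0.17 (adjusted p 0.00105), or 2.1-fold. HCC44 had 19.3 and 18.6 CPM with DMSO and 26.8 and 33.1 CPM with ACBI1, again higher in both ACBI1 libraries, a rise of 0.66 ± 0.17 (adjusted p 0.0116). The HCC44 call was lost without DMSO replicate 1 (0.68), DMSO replicate 2 (0.64) or ACBI1 replicate 2 (0.50). ADM, which encodes the vasodilator adrenomedullin, was not called. It was at 12.0 and 19.3 CPM with DMSO and 6.57 and 9.62 CPM with ACBI1 in H1975 (adjusted p 0.127) and at 66.4 and 30.2 CPM with DMSO and 36.1 and 46.6 CPM with ACBI1 in HCC44 (adjusted p 0.715). In HCC44 the value was -0.22, and without DMSO replicate 1 it was 0.45.

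Glucose uptake and glycolysis take up 12 of the genes, of which 7 fell and 2 rose in H1975 and 7 fell and 1 rose in HCC44. Of all genes tested, 16.7% fell and 14.6% rose in H1975, and 17.4% fell and 17.5% rose in HCC44. Among genes whose mean reached 5 CPM, 23.0% fell in H1975 and 24.5% in HCC44. The numbers that fell were above these shares, and the numbers that rose were near or below those over all genes. SLC2A1, the basal glucose transporter, was at 151 and 161 CPM with DMSO and 104 and 112 CPM with ACBI1 in H1975. ACBI1 libraries were lower without overlap, at -0.53 ± 0.14 (adjusted p 0.0194). In HCC44 it was at 140.0 and 123 CPM with DMSO and 88.8 and 62.5 CPM with ACBI1, also lower without overlap, at -0.80 ± 0.14 (adjusted p 0.00188). The H1975 call was lost with library totals (-0.32), without DMSO replicate 2 (-0.43) and without either ACBI1 replicate (-0.44 and -0.56). The high-affinity transporter SLC2A3 was present in H1975 and nearly absent from HCC44. It was at 64.6 and 69.0 CPM with DMSO and 41.0 and 41.8 CPM with ACBI1 in H1975, a log2 fold change of -0.69 ± 0.11 (adjusted p 0.000821). HCC44 libraries were at 0.350 and 0.345 CPM with DMSO and 0.336 and 0.409 CPM with ACBI1, from 21 to 26 counts a library, so its adjusted p of 0.0491 for the difference between the lines rests on few reads. That difference (0.79 ± 0.25) was lost with each library left out, from 0.65 without HCC44 ACBI1 replicate 2 to 0.93 without HCC44 ACBI1 replicate 1, and also with DESeq2 (0.76), its size factors (0.76), library totals (0.68) and no filter (0.80).

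Later steps of glycolysis also fell in H1975. PGK1, the phosphoglycerate kinase, was at 588 and 631 CPM with DMSO and 369.8 and 372 CPM with ACBI1 in H1975 and at 445 and 458 CPM with DMSO and 342 and 346 CPM with ACBI1 in HCC44. The ACBI1 libraries were lower in both lines with close replicates, with log2 fold changes of -0.72 ± 0.08 (adjusted p 0.000133) and -0.39 ± 0.08 (adjusted p 0.00335). ENO1, the main enolase, was at 1967 and 2036 CPM with DMSO and 1403 and 1268 CPM with ACBI1 in H1975 and at 2825 and 2746 CPM with DMSO and 1870 and 1955 CPM with ACBI1 in HCC44. No groups overlapped, and the changes were near each other, -0.58 ± 0.09 (adjusted p 0.000727) and -0.54 ± 0.09 (adjusted p 0.000775), with a difference of 0.04 ± 0.12 (adjusted p 0.875). LDHA, which turns pyruvate into lactate, was at 806 and 915 CPM with DMSO and 522 and 526 CPM with ACBI1 in H1975, a log2 fold change of -0.72 ± 0.09 (adjusted p 0.00022). The HCC44 levels were 304 and 317 CPM with DMSO and 278 and 279 CPM with ACBI1, lower without overlap at -0.16 ± 0.09, which was not called (adjusted p 0.194). The difference between the lines in LDHA was 0.56 ± 0.12 (adjusted p 0.0107). It was not called without H1975 DMSO replicate 2 (0.41), either H1975 ACBI1 replicate (0.52 and 0.54) or HCC44 DMSO replicate 1 (0.53).

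ENO2 and ALDOC, isozymes of ENO1 and ALDOA, were called in HCC44 alone, ENO2 lower and ALDOC higher, and their responses differed between the lines. ENO2, the neuronal enolase, was at 32.4 and 25.1 CPM with DMSO and 34.3 and 34.8 CPM with ACBI1 in H1975, at 0.27 ± 0.13, not called (adjusted p 0.135). It was at 59.3 and 53.8 CPM with DMSO and 33.8 and 35.2 CPM with ACBI1 in HCC44, with both ACBI1 libraries lower, a log2 fold change of -0.71 ± 0.12 (adjusted p 0.00135). The difference was -0.98 ± 0.18 (adjusted p 0.00427). ALDOC, the brain-type aldolase, overlapped between groups in H1975, at 17.3 and 19.4 CPM with DMSO and 14.5 and 19.9 CPM with ACBI1. HCC44 had 19.1 and 20.7 CPM with DMSO and 31.4 and 39.5 CPM with ACBI1, a rise of 0.83 ± 0.17 (adjusted p 0.00291), and the difference was 0.93 ± 0.23 (adjusted p 0.0197). That difference was lost without H1975 DMSO replicate 2 (0.79), H1975 ACBI1 replicate 1 (0.69), either HCC44 DMSO replicate (0.87 and 0.99) or HCC44 ACBI1 replicate 2 (0.76). ALDOA was called as lower in both lines, at -0.90 ± 0.21 in H1975 (adjusted p 0.0087) and -0.68 ± 0.22 in HCC44 (adjusted p 0.0317). It was at 12.3 and 10.1 CPM with DMSO and 7.18 and 4.84 CPM with ACBI1 in H1975 and at 7.84 and 7.21 CPM with DMSO and 4.22 and 5.19 CPM with ACBI1 in HCC44. In GENCODE 29, 42.3% of its exonic bases also belong to AC093512.2 on the same strand, so reads there may have gone to the counter's ambiguous class and the value is uncertain. The H1975 call was lost without DMSO replicate 1 (-0.76) or ACBI1 replicate 2 (-0.62). The HCC44 call was lost with library totals (-0.59), without either DMSO replicate (-0.62 and -0.73) and without ACBI1 replicate 1 (-0.53).

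The responses of HK2, at the entry of glycolysis, and of PFKFB3 and PFKFB4, regulators of its control point, differed between the lines. HK2, an inducible hexokinase, was at 128 and 134 CPM with DMSO and 158 and 167 CPM with ACBI1 in H1975, higher in both ACBI1 libraries, a rise of 0.31 ± 0.10 (adjusted p 0.0332). In HCC44 it was at 182 and 216 CPM with DMSO and 168 and 159 CPM with ACBI1, lower in both, at -0.28 ± 0.10 (adjusted p 0.0444). PFKFB3 and PFKFB4 encode bifunctional enzymes that set the level of fructose 2,6-bisphosphate, the activator of phosphofructokinase. PFKFB3 was at 60.5 and 57.7 CPM with DMSO and 80.9 and 80.3 CPM with ACBI1 in H1975, a rise of 0.45 ± 0.09 without overlap (adjusted p 0.00321). HCC44 libraries were at 104 and 97.3 CPM with DMSO and 88.3 and 81.7 CPM with ACBI1, at -0.24 ± 0.09 (adjusted p 0.0488). PFKFB4 was at 44.2 and 39.3 CPM with DMSO and 13.8 and 16.8 CPM with ACBI1 in H1975, a log2 fold change of -1.45 ± 0.16 (adjusted p 0.000133) that left ACBI1 2.73-fold lower. In HCC44 its groups overlapped, at 7.26 and 6.72 CPM with DMSO and 6.24 and 8.37 CPM with ACBI1.

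The difference between the lines was -0.59 ± 0.14 for HK2 (adjusted p 0.0139), -0.69 ± 0.12 for PFKFB3 (adjusted p 0.00387) and 1.51 ± 0.23 for PFKFB4 (adjusted p 0.00179). For HK2 it was lost without H1975 ACBI1 replicate 2 (-0.57) or HCC44 DMSO replicate 2 (-0.46). The falls of HK2 and PFKFB3 in HCC44 lay at the threshold. With library totals they were -0.19 and -0.15 and not called, with DESeq2 or its size factors (-0.28 and -0.25) and with HCC44 fitted alone (-0.28 and -0.24) they were not called, and PFKFB3 was not called with either other filter (-0.24 and -0.23). Without any 1 of the 4 H1975 libraries neither was called, at -0.28 and -0.25. For HK2 the call was also lost without HCC44 DMSO replicate 2 (-0.15), ACBI1 replicate 1 (-0.32) or ACBI1 replicate 2 (-0.24). For PFKFB3 it was also lost without HCC44 DMSO replicate 1 (-0.20), DMSO replicate 2 (-0.29) or ACBI1 replicate 2 (-0.19). The rise of HK2 in H1975 was not called without DMSO replicate 1 (0.28) or either ACBI1 replicate (0.29 and 0.39). PDK1, a kinase that inhibits pyruvate dehydrogenase, was at 16.9 and 20.8 CPM with DMSO and 12.5 and 14.0 CPM with ACBI1 in H1975. It was lower there without overlap at -0.51 ± 0.18 but just outside the threshold (adjusted p 0.0512). In HCC44 it overlapped, at 20.4 and 26.1 CPM with DMSO and 19.9 and 26.7 CPM with ACBI1.

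**Figure D2:**
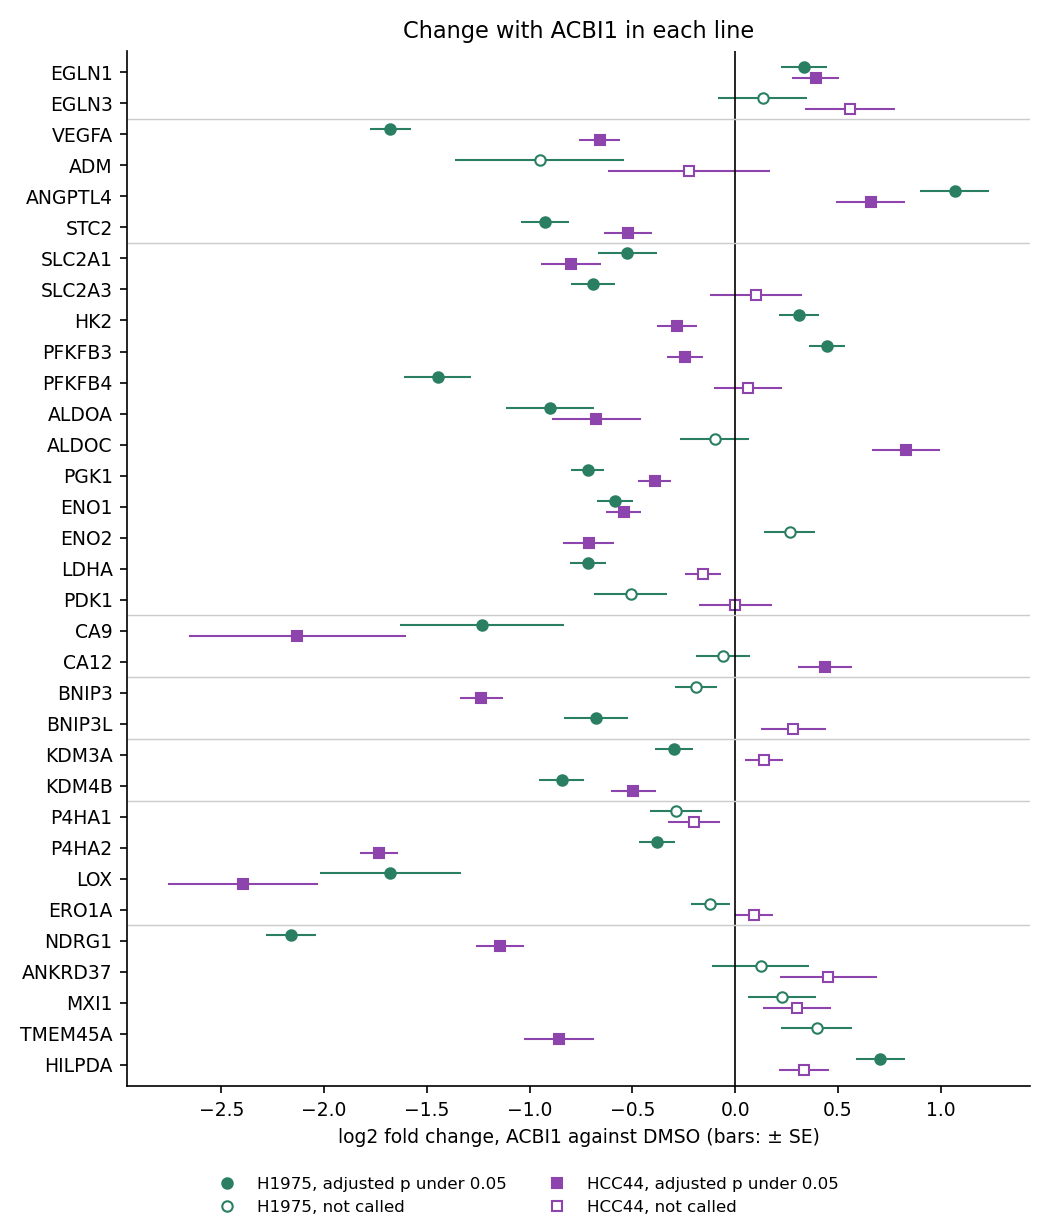
Log2 fold change with ACBI1 against DMSO for each of the 33 genes, with bars of 1 SE on each side. Circles are H1975, squares are HCC44, and filled symbols passed an adjusted p under 0.05. Most filled symbols lie left of 0, HK2 and PFKFB3 have filled symbols on both sides, and BNIP3, P4HA2, PFKFB4 and TMEM45A show wide gaps between the lines.

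CA9 and CA12 are cell-surface carbonic anhydrases that help export acid, and their changes had opposite signs in HCC44. CA12 was at 58.5 and 60.8 CPM with DMSO and 71.9 and 89.9 CPM with ACBI1 there, a rise of 0.44 ± 0.13 (adjusted p 0.024), and overlapped in H1975, at 29.4 and 33.9 CPM with DMSO and 27.6 and 33.2 CPM with ACBI1. The CA12 call was lost without HCC44 DMSO replicate 1 (0.41), DMSO replicate 2 (0.47) or ACBI1 replicate 2 (0.27). CA9 was scarce, at 1.41 and 2.12 CPM with DMSO and 0.572 and 0.933 CPM with ACBI1 in H1975 and 0.445 and 0.815 CPM with DMSO and 0.0800 and 0.204 CPM with ACBI1 in HCC44. Both ACBI1 libraries were lower in each line, with log2 fold changes of -1.23 ± 0.40 (adjusted p 0.0376) and -2.13 ± 0.53 (adjusted p 0.00953). The H1975 call was lost with DESeq2 (-1.20), library totals (-1.03), without DMSO replicate 2 (-0.86) or ACBI1 replicate 1 (-0.89), and the HCC44 call without DMSO replicate 2 (-1.63) or ACBI1 replicate 1 (-1.61). ARHGEF39 covers 38.5% of the exonic bases of CA9 on the opposite strand, and the strand setting of the counts is not given in the sources used here. ARHGEF39 itself rose by 1.86 in HCC44 (adjusted p 0.001985), opposite in sign to CA9, and its part in the CA9 values was not tested.

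BNIP3 and BNIP3L are paralogous receptors that direct mitochondria to autophagy, and each fell in a different line. BNIP3 was at 56.6 and 61.1 CPM with DMSO and 49.8 and 53.3 CPM with ACBI1 in H1975, lower without overlap at -0.19 ± 0.10, not called (adjusted p 0.181). The HCC44 levels were 45.0 and 45.8 CPM with DMSO and 18.1 and 20.5 CPM with ACBI1, a log2 fold change of -1.24 ± 0.10 (adjusted p 1.54e-05) to a level 2.35-fold lower. BNIP3L was at 60.8 and 75.2 CPM with DMSO and 39.2 and 45.9 CPM with ACBI1 in H1975, a log2 fold change of -0.68 ± 0.16 without overlap (adjusted p 0.00865). In HCC44 its groups overlapped, at 40.3 and 53.5 CPM with DMSO and 52.6 and 61.6 CPM with ACBI1 (adjusted p 0.193). The difference between the lines was -1.04 ± 0.14 for BNIP3 (adjusted p 0.00108) and 0.96 ± 0.22 for BNIP3L (adjusted p 0.0142). The H1975 fall of BNIP3L was lost without DMSO replicate 2 (-0.47) or ACBI1 replicate 1 (-0.53). Its difference was lost without H1975 ACBI1 replicate 1 (0.82), HCC44 DMSO replicate 1 (0.77) or HCC44 ACBI1 replicate 2 (0.84). The tables also list 44 rows named as pseudogenes of BNIP3, which held 0.0884 to 2.94% of its own count.

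The histone demethylases KDM3A and KDM4B need oxygen for catalysis. KDM4B was at 65.0 and 74.9 CPM with DMSO and 36.6 and 41.4 CPM with ACBI1 in H1975 and at 64.5 and 61.8 CPM with DMSO and 42.4 and 47.1 CPM with ACBI1 in HCC44. It fell without overlap in both lines, with log2 fold changes of -0.84 ± 0.11 (adjusted p 0.000311) and -0.50 ± 0.11 (adjusted p 0.00492). KDM3A was at 48.4 and 50.7 CPM with DMSO and 41.5 and 39.2 CPM with ACBI1 in H1975, a log2 fold change of -0.30 ± 0.09 (adjusted p 0.0322). HCC44 had 58.6 and 64.0 CPM with DMSO and 69.0 and 66.1 CPM with ACBI1, higher without overlap and not called (adjusted p 0.273). Its difference between the lines was 0.44 ± 0.13 (adjusted p 0.0404). The H1975 fall of KDM3A was not called with DESeq2 (-0.26) or library totals (-0.09), nor without any of the 4 H1975 libraries (-0.33 to -0.21), and its difference was not called without any of the 8 libraries (0.35 to 0.51), nor with DESeq2 or its size factors (0.40 each) or library totals (0.33).

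Genes for collagen modification and protein folding include P4HA1 and P4HA2, catalytic subunits of the enzyme that hydroxylates collagen prolines, and LOX, which crosslinks collagen. P4HA2 was at 103 and 97.8 CPM with DMSO and 31.4 and 29.1 CPM with ACBI1 in HCC44, a log2 fold change of -1.73 ± 0.09 (adjusted p 7.41e-07), or 3.32-fold. In H1975 it was at 60.8 and 58.9 CPM with DMSO and 46.0 and 45.9 CPM with ACBI1, with tight replicates and a smaller log2 fold change of -0.38 ± 0.09 (adjusted p 0.00828). The difference was -1.35 ± 0.13 (adjusted p 0.000124). The H1975 call of P4HA2 was lost with library totals (-0.18), without DMSO replicate 2 (-0.35) and without either ACBI1 replicate (-0.35 and -0.36). P4HA1 was at 89.2 and 104 CPM with DMSO and 74.0 and 84.0 CPM with ACBI1 in H1975 (adjusted p 0.105) and at 66.1 and 79.7 CPM with DMSO and 58.5 and 68.3 CPM with ACBI1 in HCC44 (adjusted p 0.25), without overlap in H1975 only. LOX had wide errors and deep falls. It was at 32.8 and 46.1 CPM with DMSO and 11.3 and 13.4 CPM with ACBI1 in H1975, a log2 fold change of -1.68 ± 0.34 (adjusted p 0.00873). In HCC44 it was at 20.9 and 29.0 CPM with DMSO and 2.96 and 6.51 CPM with ACBI1, a log2 fold change of -2.40 ± 0.36 (adjusted p 0.00177), and no groups overlapped. The H1975 call of LOX was lost without DMSO replicate 2 (-1.36) or either ACBI1 replicate (-1.53 and -1.79). ERO1A, the oxidase that drives disulfide formation in the endoplasmic reticulum, was at 203 and 199 CPM with DMSO and 185 and 185 CPM with ACBI1 in H1975 (adjusted p 0.359). It was at 255 and 299 CPM with DMSO and 303 and 287 CPM with ACBI1 in HCC44 (adjusted p 0.485).

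NDRG1, a stress-responsive gene often used as a readout of hypoxia, had the lowest H1975 log2 fold change of the 33. It was at 81.0 and 95.9 CPM with DMSO and 20.1 and 19.4 CPM with ACBI1 in H1975, a level 4.47-fold lower with ACBI1. The change was -2.16 ± 0.12 (adjusted p 3.08e-06). HCC44 libraries were at 39.9 and 36.3 CPM with DMSO and 16.1 and 18.4 CPM with ACBI1, a log2 fold change of -1.14 ± 0.12 (adjusted p 5.33e-05), and neither line's groups overlapped. The difference was 1.02 ± 0.17 (adjusted p 0.00246). HILPDA, a lipid droplet protein that restrains triglyceride breakdown, was at 15.8 and 15.3 CPM with DMSO and 26.0 and 24.7 CPM with ACBI1 in H1975, a rise of 0.71 ± 0.12 (adjusted p 0.00142). The HCC44 levels were 10.1 and 9.61 CPM with DMSO and 12.6 and 12.3 CPM with ACBI1, higher without overlap and just outside the threshold (adjusted p 0.0517). The difference was -0.37 ± 0.17 and was not called (adjusted p 0.158).

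TMEM45A encodes a membrane protein and had opposite signs in the lines. It was at 6.82 and 9.55 CPM with DMSO and 10.4 and 11.2 CPM with ACBI1 in H1975, higher without overlap and not called (adjusted p 0.106). HCC44 had 17.8 and 16.4 CPM with DMSO and 8.96 and 9.93 CPM with ACBI1, a log2 fold change of -0.86 ± 0.17 (adjusted p 0.00298), and the difference was -1.25 ± 0.24 (adjusted p 0.00602). MXI1, a repressor that binds MAX, and ANKRD37, an ankyrin repeat protein, were not called in either line. MXI1 was at 39.6 and 54.8 CPM with DMSO and 49.8 and 60.8 CPM with ACBI1 in H1975 (adjusted p 0.325) and at 39.0 and 46.6 CPM with DMSO and 49.2 and 56.2 CPM with ACBI1 in HCC44 (adjusted p 0.191). ANKRD37 was at 2.70 and 2.34 CPM with DMSO and 2.33 and 3.17 CPM with ACBI1 in H1975 (adjusted p 0.731) and at 2.80 and 2.30 CPM with DMSO and 3.81 and 3.18 CPM with ACBI1 in HCC44 (adjusted p 0.166). Groups of both genes overlapped in H1975 and did not in HCC44. UFSP2 covers 35.2% of the exonic bases of ANKRD37 on the opposite strand, so its counts are uncertain.

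Counted over the roles, 28 of the 33 genes in H1975 and 26 in HCC44 had ACBI1 libraries that did not overlap the DMSO libraries. In H1975, 21 lay below and 7 above, and in HCC44, 17 lay below and 9 above. Among all genes tested, 67.3% did not overlap in H1975, 34.2% below and 33.1% above, and 66.8% in HCC44, 32.7% below and 34.1% above. The members are mostly well-expressed genes, which are called more often. Of the 31 members whose mean reached 5 CPM, 20 were called and 15 fell in H1975, against 38.1% and 23.0% of 11659 such genes. In HCC44, 19 were called and 15 fell, against 44.6% and 24.5%. The counts depended on single libraries, and so did those over all genes. In H1975 the number that fell was 10 without DMSO replicate 2 or without ACBI1 replicate 1, where all genes called lower went from 3556 to 2284 and 2163. The number that rose was 3 without ACBI1 replicate 1 or without ACBI1 replicate 2, where all genes called higher went from 3107 to 2389 and 1786. In HCC44 the number that rose was 2 with DMSO replicate 1 or ACBI1 replicate 2 left out and 1 with DMSO replicate 2 left out, while all genes called higher went from 3720 to 2413, 2730 and 2442.

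The scaling moved the split of calls. Library totals in place of TMM factors put the median of all genes at 0.18 in H1975 and 0.09 in HCC44, where TMM put it at -0.01 and 0.01. With library totals 12 members fell and 7 rose in H1975, and 13 fell and 6 rose in HCC44. Over all genes the same scaling called 2080 lower and 5427 higher in H1975, and 2964 lower and 4534 higher in HCC44. Relative to the median of all genes, the members' median was -0.37 with TMM and -0.36 with library totals in H1975, and -0.23 with both in HCC44. In H1975 the values of ALDOC, BNIP3, CA12 and ERO1A, none of them called, changed sign with library totals.

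**Figure D3:**
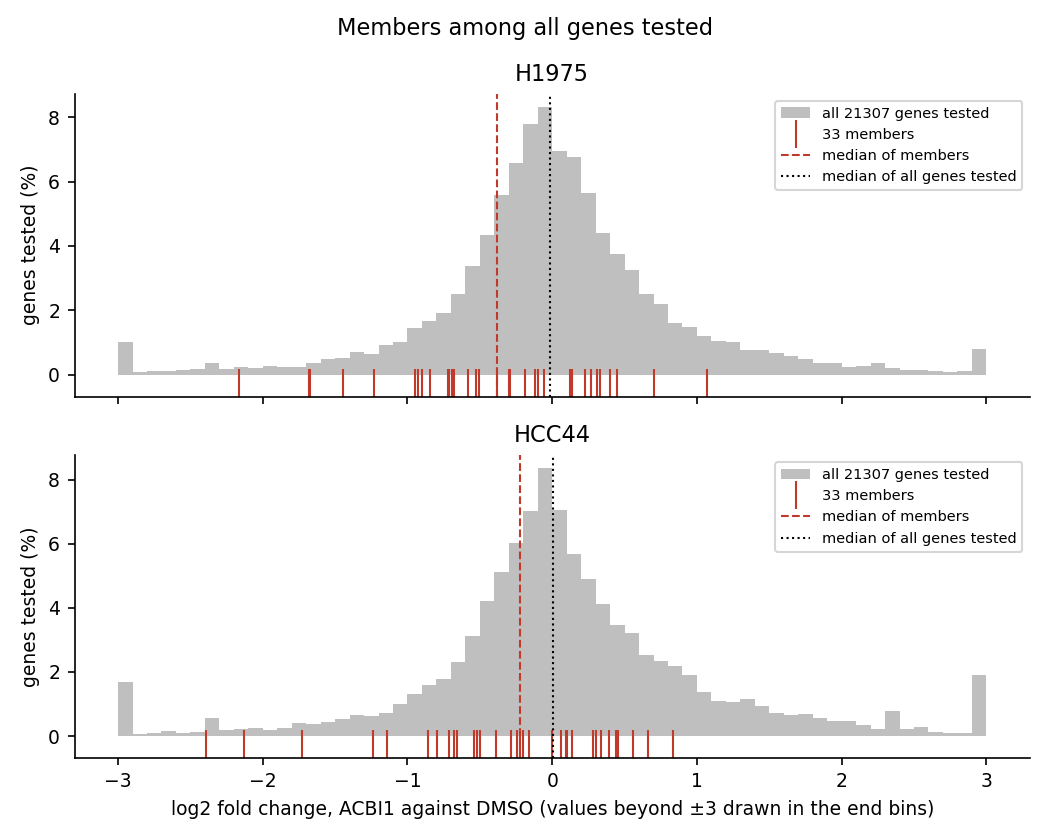
Distribution of log2 fold changes with ACBI1 over the 21307 genes tested (grey bars, percent of genes per bin of 0.1) in each line, with the 33 members as red ticks. The dashed red line is the members' median and the dotted black line the median of all genes tested. The members' median lies left of that of all genes in both panels, at -0.38 in H1975 and -0.22 in HCC44.

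HCC44 and H1975 responded differently to ACBI1 for 14 of the 33 genes, 8 with a more positive and 6 with a more negative log2 fold change in HCC44. Of all genes tested, 10.2% and 8.4% did so, and of genes whose mean reached 5 CPM 14.4% and 11.7%. The 8 were VEGFA, SLC2A3, PFKFB4, ALDOC, LDHA, BNIP3L, KDM3A and NDRG1, and the 6 were HK2, PFKFB3, ENO2, BNIP3, P4HA2 and TMEM45A. The count of 8 was 3 to 5 without H1975 DMSO replicate 2 (4), either H1975 ACBI1 replicate (3 and 5), either HCC44 DMSO replicate (3 and 5) or HCC44 ACBI1 replicate 2 (4), while the count over all genes went from 2178 to between 1306 and 1663. VEGFA, PFKFB4, NDRG1, PFKFB3, ENO2, BNIP3, P4HA2 and TMEM45A kept the call with each library left out and in the other settings.

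Ratios of 2 family members within a library do not depend on scaling, and they are given here as values with no test. The log2 ratio of PFKFB3 to PFKFB4 counts was 0.45 and 0.56 in H1975 with DMSO and 2.55 and 2.26 with ACBI1. In HCC44 it was 3.84 and 3.86 with DMSO and 3.82 and 3.29 with ACBI1, so the H1975 ratio shifted toward PFKFB3 and stayed below that of HCC44. The log2 ratio of BNIP3 to BNIP3L was -0.11 and -0.30 in H1975 with DMSO and 0.35 and 0.22 with ACBI1. In HCC44 it was 0.16 and -0.22 with DMSO and -1.54 and -1.59 with ACBI1, the opposite direction to H1975. The log2 ratio of P4HA1 to P4HA2 in HCC44 was -0.64 and -0.30 with DMSO and 0.90 and 1.23 with ACBI1, and its mean in H1975 was 0.69 with DMSO and 0.78 with ACBI1. The mean for ENO1 against ENO2 was 6.13 with DMSO and 5.27 with ACBI1 in H1975, and 5.62 and 5.79 in HCC44. For KDM3A against KDM4B the mean log2 ratio changed with ACBI1 by 0.55 in H1975 and 0.64 in HCC44. In the same order, it changed by -0.81 and -1.51 for ALDOA against ALDOC and by -1.18 and -2.67 for CA9 against CA12. The changes were 0.20 and -0.21 for EGLN1 against EGLN3, and 0.17 and -0.91 for SLC2A1 against SLC2A3. In HCC44 the CA9 ratio rests on 5 and 13 CA9 counts with ACBI1, and the SLC2A3 ratio on 21 to 26 SLC2A3 counts a library. The ALDOA ratio is uncertain, since part of its exonic bases also belong to AC093512.2.

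**Figure D4:**
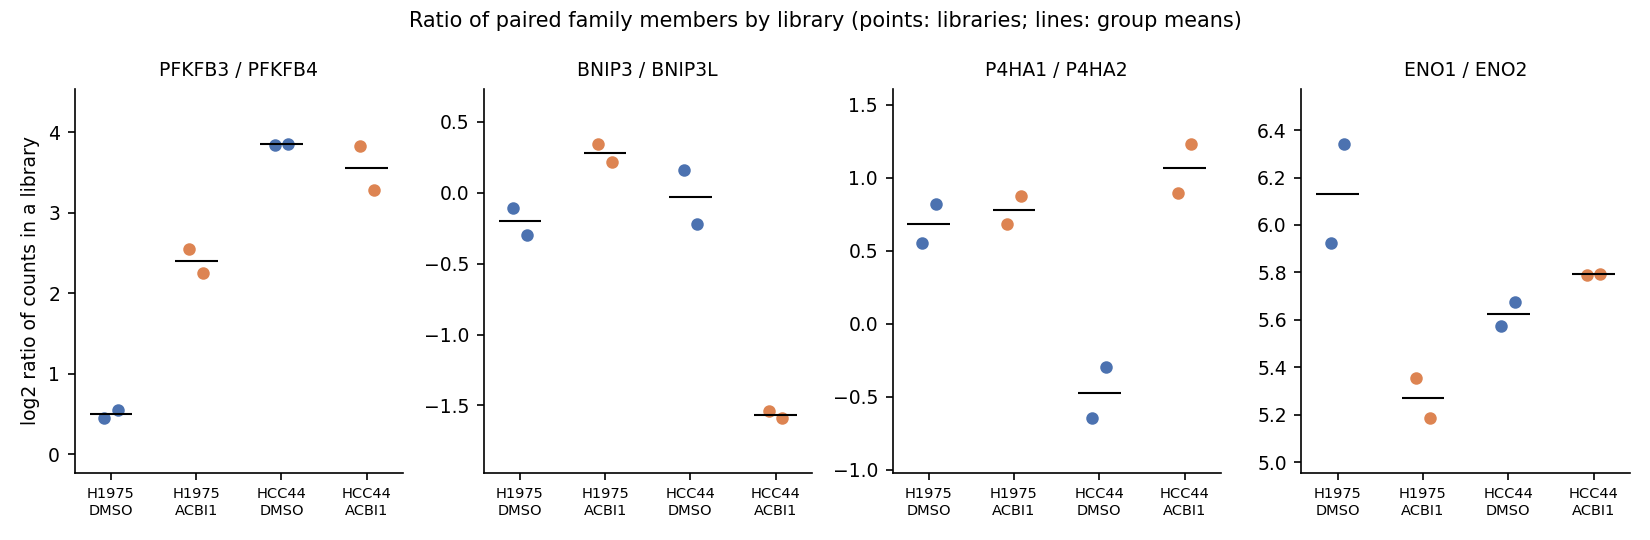
Log2 ratio of the counts of 2 family members in each library for 4 pairs, with points for libraries and black lines for group means; blue is DMSO and orange is ACBI1. PFKFB3 / PFKFB4 shifts upward in H1975, BNIP3 / BNIP3L downward and P4HA1 / P4HA2 upward in HCC44, and ENO1 / ENO2 downward in H1975.

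The lines already differed with DMSO, at about the rate of other genes. Of the 33 genes, 11 were higher and 14 lower in HCC44 DMSO than in H1975 DMSO, or 75.8% in all. Of all genes tested, 67.9% were called, 31.6% higher and 36.4% lower, and of those whose mean reached 5 CPM 74.4% were called, 39.5% higher and 34.9% lower. The DMSO libraries of the lines did not overlap for 28 members, 11 higher and 17 lower in HCC44, against 84.9% of all genes tested, 39.9% higher and 45.0% lower. SLC2A3 was at 64.6 and 69.0 CPM in H1975 DMSO and at 0.350 and 0.345 CPM in HCC44 DMSO, a log2 difference of -7.58 ± 0.16 (adjusted p 7.82e-11). PFKFB4 was also lower in HCC44, at -2.58 ± 0.17 (adjusted p 2.12e-07), as were LDHA, at -1.47 ± 0.09 (adjusted p 1.04e-07), and NDRG1, at -1.21 ± 0.12 (adjusted p 4e-06). STC2 was higher in HCC44 by 1.21 ± 0.12 (adjusted p 4.16e-06), and TMEM45A by 1.06 ± 0.17 (adjusted p 0.000229). The comparisons of ACBI1 with DMSO share these DMSO libraries. For NDRG1, PFKFB4, LDHA and VEGFA the H1975 DMSO level was the highest of the 4 groups.

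Other genes of the pathway were counted in lists that had no member in common with the 33. These lists were chosen with earlier results of these data known, so they are not independent support. Of 13 further glycolytic enzymes and lactate transporters, 9 fell and none rose in H1975, and 8 fell and none rose in HCC44. Among tested genes whose mean reached 5 CPM, 23.0% fell in H1975 and 24.5% in HCC44. SLC16A3, the lactate exporter, fell in both lines, with log2 fold changes of -1.31 ± 0.13 (adjusted p 7.1e-05) and -0.99 ± 0.13 (adjusted p 0.000208). In H1975 it went from a mean of 169.9 ± 12.0 CPM (SD) with DMSO to 68.5 ± 4.27 CPM with ACBI1. PKM, the pyruvate kinase, and GAPDH fell in H1975, with log2 fold changes of -1.03 ± 0.11 (adjusted p 0.000106) and -0.87 ± 0.12 (adjusted p 0.000412). In HCC44 neither was called (adjusted p 0.906 and 0.487), and the difference between the lines was called for both, at 1.05 ± 0.15 and 0.75 ± 0.17. HK1, the constitutive hexokinase, fell in both lines, with log2 fold changes of -0.24 ± 0.08 in H1975 (adjusted p 0.0427) and -0.77 ± 0.08 in HCC44 (adjusted p 6.34e-05), with a difference of -0.52 ± 0.12 (adjusted p 0.011). PFKM, a phosphofructokinase subunit, also fell in both, at -0.53 ± 0.12 (adjusted p 0.00786) and -0.74 ± 0.12 (adjusted p 0.000942).

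Of 20 further genes regulated by HIFs, 13 fell and 2 rose in H1975, and 10 fell and 3 rose in HCC44. Over all genes, 16.7% fell and 14.6% rose in H1975, and 17.4% fell and 17.5% rose in HCC44, so the numbers that rose are near or below the background. Of genes whose mean reached 5 CPM, 23.0% fell in H1975 and 24.5% in HCC44. GBE1, the glycogen branching enzyme, fell in both lines, with log2 fold changes of -1.42 ± 0.11 in H1975 (adjusted p 1.7e-05) and -0.84 ± 0.11 in HCC44 (adjusted p 0.000187). CITED2, which competes with HIF alpha subunits for coactivators, fell, with a log2 fold change of -1.37 ± 0.25 in H1975 (adjusted p 0.00561) and -1.01 ± 0.25 in HCC44 (adjusted p 0.0167). INSIG2, a regulator of sterol synthesis, fell in both as well, at -0.60 ± 0.12 in H1975 (adjusted p 0.00311) and -1.01 ± 0.12 in HCC44 (adjusted p 0.000106). HMOX1, the haem oxygenase and also a target of NRF2, rose by 1.29 ± 0.24 in H1975 (adjusted p 0.00549) and 1.34 ± 0.24 in HCC44 (adjusted p 0.00426). Of 5 further genes for pH regulation, 1 rose and 2 fell in H1975, and 1 rose and 1 fell in HCC44. The gene that rose was SLC4A4, a sodium bicarbonate cotransporter, by 0.80 ± 0.21 in H1975 (adjusted p 0.0145) and 1.28 ± 0.20 in HCC44 (adjusted p 0.000806).

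Of 12 genes for oxygen sensing and the VHL ligase, 6 fell and none rose in H1975, and 3 fell and none rose in HCC44. Of tested genes whose mean reached 5 CPM, 23.0% fell in H1975 and 24.5% in HCC44, so the HCC44 number that fell is near that background. Of all genes tested, 16.7% fell and 14.6% rose in H1975, and 17.4% fell and 17.5% rose in HCC44. HIF3A, 1 of the 12, had 0 counts in every HCC44 library. HIF1A went from a mean of 419 ± 9.52 CPM (SD) with DMSO to 181 ± 6.38 CPM with ACBI1 in H1975, a log2 fold change of -1.21 ± 0.12 (adjusted p 5.48e-05), and from 675 ± 70.6 CPM (SD) with DMSO to 485 ± 74.7 CPM with ACBI1 in HCC44, a log2 fold change of -0.48 ± 0.11 (adjusted p 0.00762). The second alpha subunit EPAS1 fell in H1975, at -0.75 ± 0.14 (adjusted p 0.00234), as did ARNT2, at -3.11 ± 0.41 (adjusted p 0.000358). ELOC and ELOB are adaptors of VHL. ELOC fell in both lines, at -0.35 ± 0.11 in H1975 (adjusted p 0.0266) and -0.36 ± 0.11 in HCC44 (adjusted p 0.0222), while ELOB was called in HCC44, at -0.26 ± 0.08 (adjusted p 0.0282), and not in H1975, at -0.10 ± 0.08 (adjusted p 0.371). EPAS1 and ARNT2 were not called in HCC44 (adjusted p 0.245 and 0.764), and VHL was called in neither line (adjusted p 0.197 and 0.477). No test here relates these regulators to the targets.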

How the data were processed

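RNA of 8 libraries (2 cell lines, DMSO or ACBI1, 2 replicates each) was sequenced, and the authors deposited a table of raw read counts per gene for each library. The submitters' processing notes name TopHat2 2.1.1, HTSeq 0.11.0 and the build hg38, and the strand setting and annotation release are not given in the sources used here. The library kit named per the labels' protocols does not mark strand. The 5 summary rows of each table (14.3 to 15.8% of its total) entered neither library sizes nor tests. Samples were grouped by the line and treatment in their labels, and 1 title shortens the compound's name to ACBI.

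Counts were tested in R 4.3.3 with edgeR 4.0.16 (TMM factors, filterByExpr, robust quasi-likelihood fit on all 8 libraries, which share 1 estimate of the spread with 4 residual degrees of freedom), with Benjamini-Hochberg adjustment over 21307 genes and a threshold of 0.05. The contrasts were ACBI1 against DMSO in each line, the difference between these responses, and HCC44 against H1975 with DMSO. The SE is the size of the log2 fold change divided by the square root of the F statistic. On simulated counts, a small set of genes was changed in 1 line per draw. The test recovered nearly all genes given the largest change and fewer of those given the smallest. In all 4 draws the share of false calls was above the threshold. Far more genes were called in these data than were changed there, so that share need not carry over. Calls near the threshold are to be read with caution. Alternatives were DESeq2 1.42.0, its size factors in edgeR, library totals, 2 other filters, fits on fewer libraries, the replicate number as a block and leaving out each library. Gene models were read from GENCODE 29, which held 52771 of the 61228 names, and figures were drawn with matplotlib 3.10.9.

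The members and gene lists were chosen with earlier results of these data known. All 33 members are named. Full statistics were planned for members called in a line with no overlap and 5 CPM or more as a group mean, up to 10 per line by size, and for members whose response differed between the lines. From each further list, at most the 3 called genes of largest change in each line, with 5 CPM or more as a group mean, are named. Results for some genes that this rule would name are not reported here.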

Additional observations from a re-analysis of the deposited data

Results flagged for a closer look

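For 14 of the 33 genes the log2 fold change with ACBI1 differed between the lines by a test of the difference itself (HCC44 minus H1975, edgeR's quasi-likelihood test, adjusted p under 0.05). The difference was positive for PFKFB4 (1.51), VEGFA (1.02), NDRG1 (1.02), BNIP3L (0.96), ALDOC (0.93), SLC2A3 (0.79), LDHA (0.56) and KDM3A (0.44). It was negative for P4HA2 (-1.35), TMEM45A (-1.25), BNIP3 (-1.04), ENO2 (-0.98), PFKFB3 (-0.69) and HK2 (-0.59). VEGFA, NDRG1 and P4HA2 fell in both lines by different amounts, while HK2 and PFKFB3 were called in opposite directions, the HCC44 calls lying at the threshold. The calls for ALDOC, BNIP3L, HK2, KDM3A, LDHA and SLC2A3 were each lost without at least 1 library.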

How the results depend on the processing

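Of the called members, 17 of 21 in H1975, 17 of 20 in HCC44, 12 of 14 for the difference between the lines and 23 of 25 between the DMSO groups kept their call in every setting with all libraries of the fit, and 12, 13, 8 and 18 also kept it with each library left out. No called member changed sign. Leaving out a library leaves its group with 1, which is then assumed to vary like the other groups. The members' median in H1975 (-0.38) was -0.35 with DESeq2 or its size factors, -0.18 with library totals and -0.40 to -0.30 with single libraries left out. In HCC44 (-0.22) it was -0.14 with library totals and -0.24 to -0.15 with libraries left out. For the difference (0.23) it was 0.11 with library totals, and for the DMSO groups (-0.24) -0.35 with library totals, -0.20 with the DMSO libraries alone and -0.36 to -0.046 with libraries left out. With libraries left out, 3 to 7 members rose and 10 to 17 fell in H1975, 1 to 4 rose in HCC44, and 3 to 7 had a more positive response in HCC44. Same-numbered libraries of the 2 groups of a line deviated together over all genes with a correlation of 0.374 in H1975 and 0.109 in HCC44, over 2 pairs that share only a number. With the replicate number as a block, 8 members rose in HCC44 and 13 had a more positive response there. Over all genes the block called 4749 higher in HCC44 (3720 without it) and 3481 for the difference (2178 without it). Members not called in the reported values but called with the block were MXI1 and P4HA1 in both lines, PDK1 and TMEM45A in H1975, and BNIP3L, EGLN3 and HILPDA in HCC44. Other settings with all libraries of the fit added calls too. In H1975 these were PDK1 (DESeq2, no filter, H1975 fitted alone), P4HA1 (no filter), ADM (H1975 fitted alone), and ENO2 and TMEM45A (library totals). In HCC44 they were EGLN3 (DESeq2, library totals, no filter), HILPDA (DESeq2, library totals, a filter at 1 CPM) and MXI1 (no filter). The block was not run for the DMSO groups. Values that were not called changed sign as follows. With library totals the H1975 values were ALDOC 0.10, BNIP3 0.013, CA12 0.14 and ERO1A 0.083, the differences EGLN1 -0.052, ENO1 -0.072, MXI1 -0.041 and P4HA1 -0.023, and the DMSO values ALDOC -0.001 and ANKRD37 -0.10. PDK1 in HCC44 was -0.002 with DESeq2 or its size factors and -0.003 with the block. With libraries left out the ranges in H1975 were ALDOC -0.32 to 0.14, ANKRD37 -0.09 to 0.37 and CA12 -0.18 to 0.10. In HCC44 they were ADM -0.68 to 0.45, ERO1A -0.024 to 0.21, PDK1 -0.23 to 0.20, PFKFB4 -0.16 to 0.26 and SLC2A3 -0.046 to 0.24. For the difference they were ALDOA -0.057 to 0.50, EGLN1 -0.10 to 0.16, ENO1 -0.054 to 0.08, MXI1 -0.23 to 0.29 and P4HA1 -0.078 to 0.23. Between the DMSO groups they were ANKRD37 -0.12 to 0.15, EGLN3 -0.64 to 0.079, KDM4B -0.26 to 0.009 and MXI1 -0.36 to 0.17. The cause of these shifts was not tested. Depth limits CA9 and, in HCC44, SLC2A3.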

Other observations

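ALDOA, the main aldolase of muscle and many cell lines, had 794 and 685 counts in H1975 with DMSO, 540 and 342 with ACBI1, and 493, 460, 264 and 330 in HCC44 in the same order. The row for AC093512.2, which shares exonic bases with ALDOA on the same strand in GENCODE 29, had 249, 235, 254 and 198 counts in H1975 and 74, 76, 92 and 120 in HCC44. Reads that match both genes are set apart as ambiguous by the counter, and that class held 4.98 to 5.42% of each table's total.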
